A study of Mus musculus with 16 samples.

Results

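The response of the wild-type (WT) mouse uterus to 17beta-estradiol (E2) was measured by setting 4 WT samples given the hormone against 4 WT samples given its vehicle, called PLB. These 8 of the 16 arrays of the series were chosen by their labels. The other 8 arrays, from mice of the genotype named Arg260, entered 1 alternative fit only. All mice had been ovariectomised at 4 weeks of age and kept for 2 to 3 weeks, so that both groups lacked ovarian estrogen. The E2 group received 8 ug/kg of E2 under the skin in castor oil, the PLB group received the oil with 0 ug/kg, and uteri were taken at 6 h. Each sample was hybridised to 1 array of 60-base probes. The labels name no strain, and whether each sample is a different mouse is not stated in them, so that p-values measure the spread between these samples. RNA came from the whole organ, in which fewer cells of a type and less RNA per cell cannot be told apart.

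E2 enters the cell and binds estrogen receptor alpha, a transcription factor made from Esr1, which is present in the epithelium, stroma and muscle of the uterus. In the rodent uterus the first hours after a dose bring vessel leakage, uptake of water, entry of white blood cells and growth of the cells, and DNA synthesis follows later. Genes answer both through the receptor at their own enhancers and through growth factors and transcription factors that the receptor induces.

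Levels are given below as log2 of a probe's processed signal relative to the 75th percentile of its array, so that 0 is the level of that percentile and 1 unit is a doubling of the signal. Levels of different probes are not comparable, since probes differ in brightness. A gene was called when its difference between groups had an adjusted p under 0.05 in limma (Benjamini-Hochberg over all probes), and "rose" and "fell" are used of called genes only. Every adjusted p comes from that fit unless another setting is named, and SE is the standard error of the log2 change with n = 4 samples a group. Of 24751 genes tested, 15879 (64.2%) were called, 8006 (32.3%) higher after E2 and 7873 (31.8%) lower. A total of 3323 genes (13.4%) were called and at least 2-fold higher, and 3708 (15%) were called and at least 2-fold lower. The median log2 change of all genes was -0.02 and the median absolute change 0.57. Centring arrays on their median in place of the 75th percentile moved the median to 0.13. Within slide 1 and within slide 2 alone, each with 2 samples a group, 12406 and 10154 genes were called, and every called gene named below had the same direction on both slides. Of those genes, Adipoq, Fabp4, Car3, Scd1, Ptgs2, Ccl5, Isg20, Cfd and Tbx2 were not called within slide 1. Adipoq, Snrpn, Lsm10, Rps21, Aldh1l1, Scd1, Erbb3, Erbb2, Ccl5, Isg20, Ifi208, Cfd, Klk9, Klk11, Krt18, Gjb2 and Slc39a4 were not called within slide 2. The size of some changes depended on the processing: with normexp and quantile normalisation 51 of the called genes named here moved by over 1.5-fold and in the deposited values 27 did, all of them closer to 0. The normexp setting added an offset of 50 to every signal, where median processed intensities per array were 66.5 to 86.5. Such an offset shrinks the changes of dim probes, so that moves toward 0 under normexp are partly built in. Where a setting moved the fold change of a named gene by over 1.5-fold, the log2 change under it stands in brackets after the word normexp (with quantile normalisation), deposited (the deposited values), mean of probes, slide 1 or slide 2. With calls this frequent, the counts within a family are to be read against 32.3% and 31.8%. These shares also cover transcripts such as 3419 intergenic regions named by position. Over the 15828 protein-coding genes tested they were 36.4% higher and 33.7% lower. The 91 families held 5867 entries, of which 5860 had a probe and 4035 were bright enough to test; each count below is over tested members.

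Between 36585 and 41766 of 59305 non-control spots per array were well above background, and none was saturated. The first principal component of the 8 arrays held 76.3% of the variance and parted the E2 from the PLB samples, and log2 levels across genes correlated at 0.989 to 0.992 within E2, 0.980 to 0.994 within PLB and 0.926 to 0.942 between the groups. PLB replicate 2 stood apart on the second component (7.50%). The series table deposited by the authors lists 228 probes as missing, all on that array, and 147 of the 150 tested probes that lay over 3 log2 units below the other PLB arrays there are among them, against 2 to 27 such low probes on each of the other 7 arrays. Without these 228 probes the second component held 4.74% and the correlations within PLB ran from 0.989 to 0.994. The spots were kept in the main fit, and of the family members described below 22 rest on one of them, none of which was called. All 10 markers each of epithelium, stroma and smooth muscle were measured, as the tissue label requires, with mean levels of 2.41 to 4.59 on every array. Markers of fat cells were present too and differed between and within the groups: all 9 tested fell, and their mean level was -2.83, 0.67, 0.38 and -0.71 in the E2 samples, against 2.78, 3.23, 3.01 and 1.54 in the PLB samples. The marker lists of pericytes (5 of 7 lower, 0 higher), stroma (7 of 10 lower, 1 higher) and Schwann cells and neurons (4 of 6 lower, 1 higher) also leaned to lower. In the endothelial list 4 of 10 were lower and 1 higher, with a median log2 change of -0.16, where 31.8% of all genes were lower. The lists of the other cell types are given in the plot of marker lists by array.

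**Figure D1:**
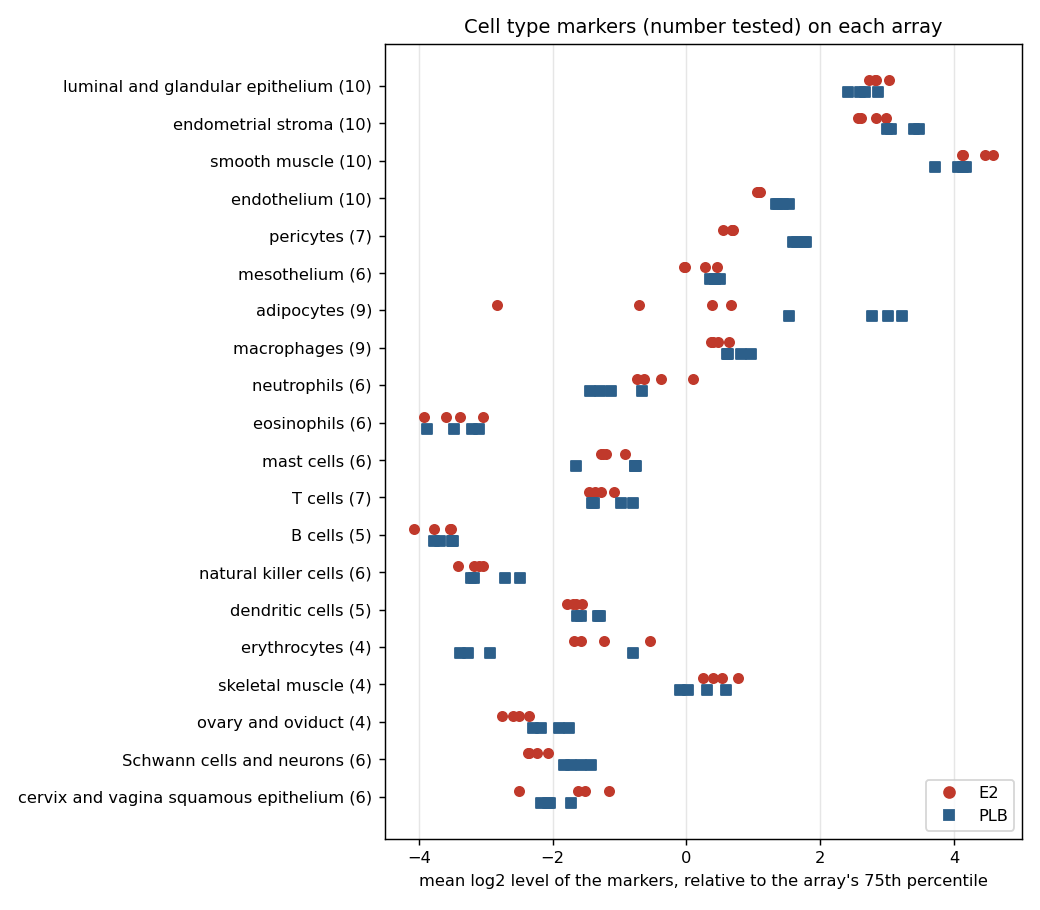
Mean log2 level, relative to each array's 75th percentile, of the tested markers of each cell type (rows) on the 4 E2 arrays and the 4 PLB arrays; each point is 1 array. Markers of fat cells ran from -2.83 to 0.67 in E2, against 1.54 to 3.23 in PLB, and the E2 arrays spread over 3.50 log2 units.

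Estrogen receptor alpha itself did not pass the test in the main fit. The probe that stood for Esr1 read 3.68, 3.63, 3.52 and 3.59 in the E2 samples, against 3.53, 3.59, 3.78 and 3.67 in the PLB samples (log2 change -0.04, SE 0.08, adjusted p = 0.72). The 2 groups overlapped. Quantile normalisation, normexp with quantile normalisation and the deposited table each put it lower (-0.42, -0.41 and -0.40, adjusted p = 0.00185, 0.000766 and 0.00168), so that its call depends on how arrays are scaled. Its 4 tested probes did not move together either, with calls in both directions and changes from -0.53 to 0.25. Pgr, which encodes the progesterone receptor and is a textbook target of E2, read 4.47, 4.25, 4.35 and 4.27 in the E2 samples, against 2.33, 2.03, 2.00 and 2.49 in the PLB samples. Every E2 sample lay above every PLB sample (log2 change 2.12, SE 0.13, adjusted p = 2.44e-06).

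Beyond the largest single changes, genes that ranked 13 to 30 by rise and 11 to 28 by fall were taken among those well above background on all 8 arrays. The rises ran from 68.3-fold to 32.3-fold. They included the aggrecan-cleaving protease gene Adamts4, the hyaluronan synthase gene Has1 (63.7-fold, log2 change 5.99, normexp 4.70), the noradrenaline-making enzyme gene Dbh (62.6-fold, log2 change 5.97, normexp 4.33, deposited 5.02), and Myh8 and Myh6, which encode the perinatal and cardiac myosin heavy chains (55.3-fold, log2 change 5.79, normexp 4.08, deposited 4.83 and 54-fold, log2 change 5.76, mean of probes 4.48). Slc6a13, a transporter of the transmitter GABA, rose 47.9-fold and the vascular growth factor gene Pgf 44.9-fold. Padi1, which turns arginine in proteins into citrulline, rose 38.6-fold, the spindle checkpoint gene Mad2l1 33.3-fold, Zfp469, a zinc finger gene linked to collagen in the human cornea, 33.1-fold, and the neurotrophin receptor gene Ngfr 32.8-fold. The falls ran from 19.8-fold to 13.7-fold. Rhebl1, a small GTPase close to the mTOR activator Rheb, was the first of them (log2 change -4.31, SE 0.09, adjusted p = 2.02e-07). The channel subunit gene Cngb1 fell 19.2-fold (log2 change -4.26, normexp -3.43, mean of probes -1.98), the inositol transporter gene Slc5a11 17.9-fold (log2 change -4.16, slide 1 -4.81, slide 2 -3.51), the prostaglandin F receptor gene Ptgfr 17.9-fold (log2 change -4.16, normexp -3.22) and the Wnt-enhancing ligand gene Rspo3 14.7-fold. The fat cell genes Adipoq (adiponectin), Fabp4 and Car3 fell 19.7-fold, 18.9-fold and 18.2-fold with large SEs of 1.28, 0.95 and 1.14 log2 units. Without E2 replicate 1 these 3 changed by -2.95, -3.31 and -2.97, and without E2 replicate 2 by -4.97, -4.85 and -4.77. Without E2 replicate 3 Adipoq changed by -4.91 and Car3 by -4.78. Within slide 1 they changed by -5.71, -5.06 and -5.40, none of them called, and within slide 2 by -2.89 (not called), -3.42 and -2.97. Adipoq and Fabp4 are themselves among the fat cell markers given above, so that their moving with that mean is partly built in. Car3 is not among them, and its lowest E2 sample was replicate 1 too. The part of varying fat in these genes was not tested.

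**Figure D2:**
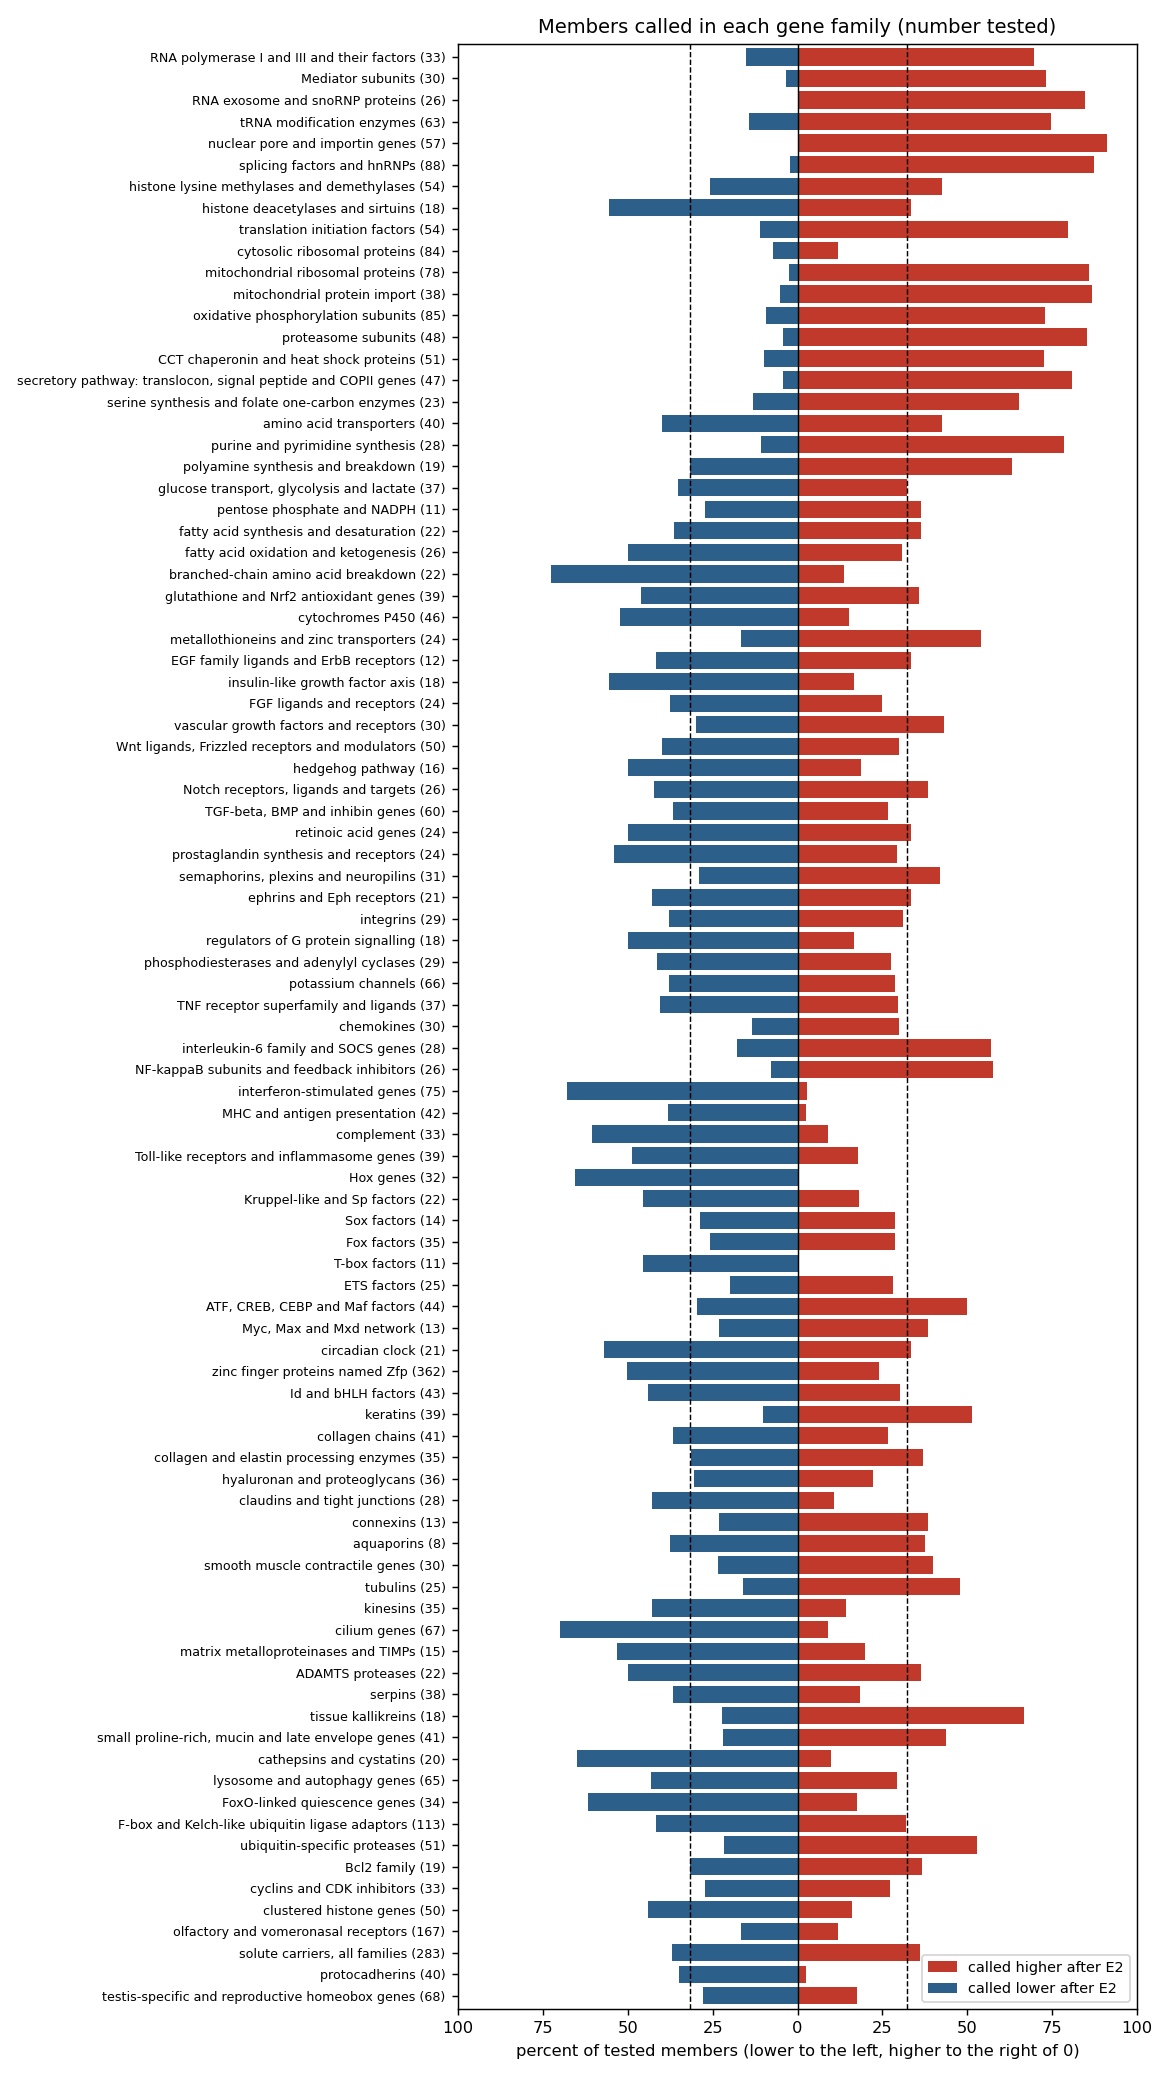
Share of tested members called higher (bars to the right of 0) and lower (bars to the left) after E2 in each gene family, in percent, with the number tested beside the name; dashed lines mark the shares over all genes, 32.3% higher and 31.8% lower. Nuclear pore, splicing, proteasome and mitochondrial families reach far to the right with few members to the left, and Hox, interferon-stimulated, branched-chain breakdown and cilium genes reach to the left.

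In families that make and move RNA most tested members rose. Of 57 genes of the nuclear pore and of the importins and exportins that carry cargo through it, 52 rose and 0 fell, with a median log2 change of 1.12. Kpna2, an importin that brings proteins into the nucleus, read 4.70, 4.52, 4.54 and 4.44 in the E2 samples, against 1.58, 1.59, 1.41 and 1.93 in the PLB samples. The groups lay more than 2 log2 units apart (log2 change 2.92, SE 0.12, adjusted p = 5.74e-07). Ipo5 rose by 2.48 and Xpot, which exports transfer RNA, by 2.42. Of 88 splicing factors and hnRNPs, 77 rose and 2 fell (median 0.91), among them Lsm12 (2.17), the core snRNP protein gene Snrpd1 (2.05) and Hnrnpab (1.93), while the imprinted Snrpn fell by 0.50 and Lsm10, of the histone RNA particle, fell by 0.43. Srsf2, a serine and arginine rich splicing factor, had 3 tested probes that did not move together: 2 rose (2.88 and 2.52) and 1 fell by 0.95. They lie close together on chromosome 11 of build mm9, at 116711994 to 116712053 (the probe that stands for the gene), 116713385 to 116713444 and 116712806 to 116712865 (the probe that fell).

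All 22 called genes of the RNA exosome and the small nucleolar ribonucleoproteins, which trim and modify ribosomal RNA, rose (22 of 26 tested, median 1.27). Nop58, a core protein of box C/D particles, read 5.11, 4.98, 5.11 and 4.85 in the E2 samples, against 2.28, 1.93, 1.99 and 2.16 in the PLB samples (log2 change 2.92, SE 0.11, adjusted p = 4.05e-07). No sample of either group came near the other group. Nhp2, of the box H/ACA particles that make pseudouridine, rose by 2.35 and the exosome gene Exosc6 by 2.16. Of 33 genes of RNA polymerases I and III, which make ribosomal and transfer RNA, 23 rose and 5 fell. Polr3d, a polymerase III subunit, read 2.37, 2.36, 2.29 and 2.09 in the E2 samples, against -0.16, -0.06, -0.07 and -0.01 in the PLB samples (log2 change 2.35, SE 0.09, adjusted p = 4.18e-07). Polr1e rose by 2.39 and the polymerase I initiation factor gene Rrn3 by 1.68. The 2 largest falls were those of Polr3gl (-1.62), a variant subunit, and Maf1 (-1.17), the repressor of polymerase III. Of 63 enzymes that modify transfer RNA, 47 rose and 9 fell, led by Trmt61a, which methylates adenine, at 4.52, 4.69, 4.63 and 4.56 in the E2 samples, against 1.54, 1.66, 1.56 and 1.50 in the PLB samples (log2 change 3.04, SE 0.07, adjusted p = 2.17e-07). Ctu2, of the thiolation of wobble uridine, rose by 2.78 and the guanine methylase gene Mettl1 by 2.19, while Trmt9b fell by 2.46. Of 30 subunits of Mediator, the bridge between enhancers and RNA polymerase II, 22 rose and 1 fell, with the smaller median of 0.57.

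Translation showed a split between its factors and its ribosomal proteins. Of 54 initiation factor genes 43 rose and 6 fell (median 1.07). Eif2s2, the beta subunit of the factor that brings in the initiator transfer RNA, read 6.26, 6.13, 6.12 and 5.90 in the E2 samples, against 3.24, 3.13, 3.10 and 3.13 in the PLB samples (log2 change 2.95, SE 0.09, adjusted p = 2.57e-07). Eif4ebp1, which holds back cap binding, rose by 2.47 too, and Eif2ak3, the kinase that halts initiation under stress of the endoplasmic reticulum, fell by 0.77. By contrast, 68 of 84 genes of the cytosolic ribosome were not called, 10 rose and 6 fell, and their median was -0.04; with quantile normalisation the calls were 10 higher and 17 lower, with normexp and quantile normalisation 10 and 26, and in the deposited values 9 and 19. The 3 largest rises in this family were of paralogs: Rpl7l1 (1.61), Rpl36al (1.25) and Rps27l (1.11). Rpl7l1 read -0.25, -0.37, -0.15 and -0.51 in the E2 samples, against -1.74, -1.53, -2.07 and -2.38 in the PLB samples (log2 change 1.61, SE 0.18, adjusted p = 8.57e-05). The largest fall was that of Rps21 (-0.50). The genes of the mitochondrial ribosome, encoded in the nucleus as well, were called in 69 of 78 cases, 67 higher and 2 lower (median 0.74). Mrpl12 read 4.76, 4.93, 4.996 and 4.999 in the E2 samples, against 2.96, 3.06, 2.98 and 3.01 in the PLB samples (log2 change 1.92, SE 0.08, adjusted p = 5.74e-07). The difference between the 2 ribosomes was not tested as such, since members are no replicates.

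**Figure D3:**
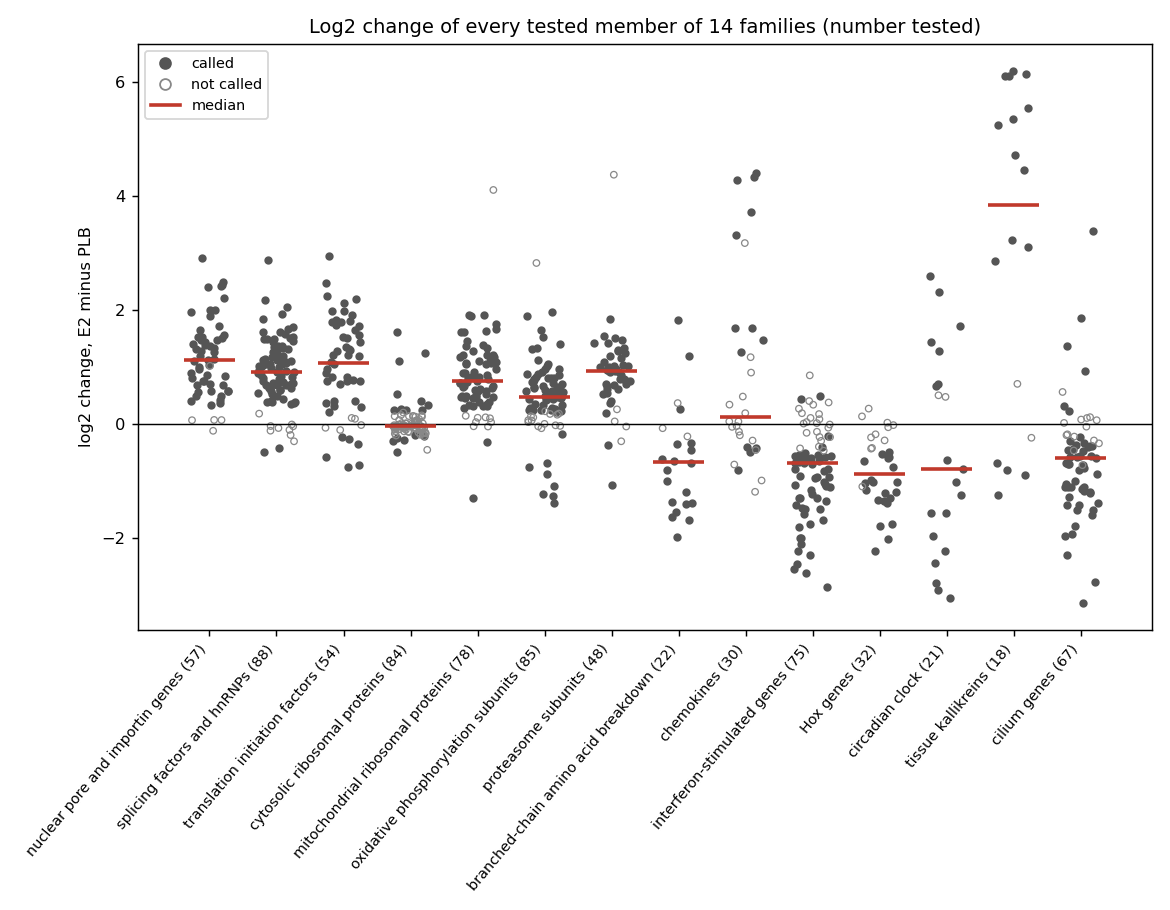
Log2 change (E2 minus PLB) of every tested member of 14 families; each point is a gene, filled where it was called, and the short bar is the family's median. Cytosolic ribosomal proteins lie close to 0 (median -0.04), mitochondrial ribosomal proteins and nuclear pore genes lie above it (0.74 and 1.12), and Hox and interferon-stimulated genes lie below it (-0.88 and -0.68). Points that were not called far above 0, such as Psmb3 (4.38), Mrpl51 (4.11), Ccl25 (3.17) and Ndufa8 (2.83), rest on spots of PLB replicate 2 that the deposited table lists as missing.

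Most tested genes of mitochondrial protein import and oxidative phosphorylation rose. Of 38 genes of protein import, 33 rose and 2 fell (median 1.02). Timm8a1, a small chaperone between the membranes, read 4.34, 4.25, 4.28 and 4.24 in the E2 samples, against 1.76, 1.83, 1.67 and 1.76 in the PLB samples (log2 change 2.52, SE 0.07, adjusted p = 2.23e-07), and the matrix chaperone gene Hspa9 rose by 2.17. Of 85 subunits of oxidative phosphorylation 62 rose and 8 fell, with a smaller median of 0.48. Cox5a, a subunit of complex IV, read 6.08, 6.21, 6.28 and 6.04 in the E2 samples, against 4.20, 4.29, 4.20 and 4.34 in the PLB samples (log2 change 1.90, SE 0.08, adjusted p = 6.61e-07), and Atp5g1, of the ATP synthase ring, rose by 1.64 (mean of probes 0.87). The 4 largest falls among subunits well above background in PLB were all linked to complex IV: Cox7a1 (-1.39) and Cox8b (-1.28), the forms of heart and skeletal muscle, Cox6b2 (-1.24), the testis form, and Cox7a2l (-1.09), which joins complexes into supercomplexes. Ppargc1a, the coactivator of mitochondrial growth, fell by 2.82 while most of the genes above rose.

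In families that fold, degrade and export proteins more tested members rose than fell. Of 48 proteasome subunits 41 rose and 2 fell (median 0.92). Psmc5, an ATPase of the regulatory particle, read 4.65, 4.64, 4.71 and 4.63 in the E2 samples, against 2.84, 2.82, 2.71 and 2.87 in the PLB samples (log2 change 1.85, SE 0.07, adjusted p = 4.18e-07). Psmb9 went the other way. This interferon-induced catalytic subunit of the immunoproteasome read 0.84, 0.96, 1.04 and 1.07 in the E2 samples, against 2.06, 1.76, 2.52 and 1.90 in the PLB samples (log2 change -1.08, SE 0.16, adjusted p = 4.19e-04), and its groups did not overlap either. Of 51 chaperonin and heat shock genes 37 rose and 5 fell. Hsph1, a nucleotide exchange partner of Hsp70, read 5.33, 5.33, 5.13 and 5.36 in the E2 samples, against 2.90, 2.48, 2.12 and 3.12 in the PLB samples (log2 change 2.63, SE 0.20, adjusted p = 9.19e-06), Hspa4 rose by 2.46 and the chaperonin subunit gene Cct6a by 2.08, whereas Cct6b, the testis form of that subunit, fell by 1.16. Of 47 genes of the entry into the secretory pathway (translocon, signal peptidase and the COPII coat) 38 rose and 2 fell. Srprb, of the receptor that docks ribosomes to the membrane, rose by 1.83 and the coat gene Sec24a by 1.55 (mean of probes 0.92), and Sec16b, which marks exit sites, fell by 2.49. Of 51 ubiquitin-specific proteases 27 rose and 11 fell. Usp39, a member that acts in the spliceosome, rose by 2.29 and the nucleolar Usp36 by 2.23. The interferon-induced Usp18 fell by 0.83.

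Most tested genes of serine, nucleotide and polyamine synthesis rose, and amino acid transporters were split. Of 23 genes of serine synthesis and folate one-carbon metabolism 15 rose and 3 fell. Psat1, an enzyme of serine synthesis, read 4.60, 4.52, 4.07 and 4.31 in the E2 samples, against 0.35, 0.76, 0.40 and 0.74 in the PLB samples (log2 change 3.81, SE 0.15, adjusted p = 5.17e-07). Phgdh, the first step of that path, rose by 2.81 and Fpgs, which retains folates in the cell, by 3.31, while Aldh1l1, which burns formyl units, fell by 1.73 (slide 1 -2.35, slide 2 -1.10). Of 40 amino acid transporters 17 rose and 16 fell. Slc7a5, the light chain of the leucine exchanger, read 2.79, 2.65, 2.59 and 2.60 in the E2 samples, against -1.57, -1.28, -1.18 and -1.28 in the PLB samples (log2 change 3.98, SE 0.10, adjusted p = 2.17e-07), and the arginine carrier gene Slc7a1 rose by 3.75. Slc38a11, a relative of the glutamine carriers, read -7.13, -5.47, -6.19 and -5.97 in the E2 samples, against -1.91, -2.35, -2.07 and -2.44 in the PLB samples (log2 change -4.003, SE 0.32, adjusted p = 1.16e-05, normexp -1.80, deposited -2.54, mean of probes -3.32), and Slc43a1, a facilitator for leucine, fell by 2.44, so that 2 leucine carriers moved in opposite directions. Of 28 genes of purine and pyrimidine synthesis 22 rose and 3 fell. Ctps, which makes CTP, read 4.98, 4.97, 4.91 and 4.95 in the E2 samples, against 1.85, 2.25, 1.70 and 1.83 in the PLB samples (log2 change 3.04, SE 0.12, adjusted p = 5.03e-07) and its paralog Ctps2 fell by 0.74. Of 19 polyamine genes 12 rose and 6 fell. Spermidine synthase, Srm, read 4.41, 4.64, 4.70 and 4.57 in the E2 samples, against 1.005, 1.19, 0.85 and 1.17 in the PLB samples (log2 change 3.53, SE 0.11, adjusted p = 2.55e-07), and Odc1, the first step, rose by 1.81. Of the antizyme inhibitors that protect that enzyme, Azin1 rose by 1.83 and Azin2 fell by 1.48.

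A stretch of promoter is shown for 5 hand-picked genes that hold it, because the amino acid response element TGATGCAA (either strand), which the factor Atf4 can bind, was more frequent in promoters of the genes that rose most. It was present in 9 of 198 promoters (4.55%) of genes called and at least 8-fold higher, against 99 of 13251 promoters (0.747%) of all genes tested with a promoter in the table, and in none of 146 promoters of genes at least 8-fold lower. Of all genes tested, 316 (1.28%) passed the first of these thresholds and 279 (1.13%) the other. Among the families above it was in 0 of 19 promoters of serine and folate genes and 3 of 32 of amino acid transporters (9.38%). At the 2-fold threshold it was in 24 of 1995 promoters (1.20%) of higher genes, against 10 of 2114 (0.473%) of lower genes, and over all called genes the shares were alike (0.656% and 0.684%). The 8-fold sets and the genes shown were chosen after these values were seen. The windows are 120 bases on the gene's strand that end before the start site, from RefSeq on build GRCm38.p6, with the motif in capitals. They lie at chr2:119350993-119351112 (Chac1, plus strand), chr3:50443614-50443733 (Slc7a11, minus), chr8:111033674-111033793 (Aars, plus), chr7:45615566-45615685 (Fgf21, minus) and chr11:120643788-120643907 (Pycr1, minus).
Chac1: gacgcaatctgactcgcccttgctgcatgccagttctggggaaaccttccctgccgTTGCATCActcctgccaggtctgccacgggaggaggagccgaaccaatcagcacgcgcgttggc
Slc7a11: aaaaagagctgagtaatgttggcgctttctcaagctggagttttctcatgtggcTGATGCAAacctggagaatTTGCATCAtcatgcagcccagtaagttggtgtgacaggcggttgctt
Aars: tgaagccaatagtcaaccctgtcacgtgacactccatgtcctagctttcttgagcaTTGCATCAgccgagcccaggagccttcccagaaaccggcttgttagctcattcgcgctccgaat
Fgf21: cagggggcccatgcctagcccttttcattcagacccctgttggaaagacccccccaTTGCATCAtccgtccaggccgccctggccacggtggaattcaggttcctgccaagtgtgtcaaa
Pycr1: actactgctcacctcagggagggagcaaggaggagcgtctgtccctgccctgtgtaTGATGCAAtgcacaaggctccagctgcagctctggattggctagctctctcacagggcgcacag

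Of the 5 genes shown, Aars charges transfer RNA with alanine and rose by 4.06, Pycr1, of proline synthesis, rose by 3.54 (normexp 2.55), Slc7a11, the cystine importer, by 3.33, and Chac1, which degrades glutathione, by 6.38. Fgf21, a hormone of the starved liver, was not well above background on any PLB array and was at least 62.1-fold higher in the main setting (log2 change 8.07, normexp 4.11, deposited 5.30). Slc7a11 held the element 2 times within its window, and its samples read 0.86, 0.50, -0.09 and -0.03 in the E2 samples, against -2.21, -3.50, -2.60 and -3.78 in the PLB samples with no overlap (log2 change 3.33, SE 0.38, adjusted p = 8.30e-05). The factor gene Atf4 rose by 2.66 and Atf3, which also held the element, read 2.60, 2.25, 2.08 and 2.20 in the E2 samples, against -0.22, -0.86, -0.40 and -1.10 in the PLB samples (log2 change 2.93, SE 0.21, adjusted p = 6.08e-06).

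Genes of fuel use went both ways, as all genes did. Of 37 genes of glucose transport, glycolysis and lactate 12 rose and 13 fell (32.4% and 35.1%). These shares are near the 32.3% and 31.8% over all genes. Hk2, the inducible hexokinase, read 2.75, 2.19, 2.46 and 1.99 in the E2 samples, against -1.67, -1.56, -1.97 and -1.82 in the PLB samples (log2 change 4.11, SE 0.17, adjusted p = 5.95e-07). Pgam1 and Eno1, of lower glycolysis, rose by 1.19 and 1.19. Pdk2, which shuts pyruvate out of the mitochondrion's acetyl-CoA production, read -1.48, -0.99, -1.48 and -0.73 in the E2 samples, against 1.48, 1.56, 1.52 and 1.56 in the PLB samples (log2 change -2.70, SE 0.17, adjusted p = 3.46e-06), and the muscle phosphofructokinase gene Pfkm fell by 2.02. Of 26 genes of fatty acid oxidation and ketogenesis 8 rose and 13 fell. Hadh, of the oxidation spiral, read 0.86, 1.22, 1.20 and 1.27 in the E2 samples, against 2.67, 2.92, 2.94 and 2.76 in the PLB samples (log2 change -1.69, SE 0.12, adjusted p = 4.75e-06), and Acadm, an earlier step of it, fell by 1.29. Genes that break down leucine, isoleucine and valine leaned to lower: of 22 genes 3 rose and 16 fell (median -0.67). Ppm1k, the phosphatase that activates its committed step, read -2.96, -2.29, -2.43 and -2.23 in the E2 samples, against -0.27, -0.35, -0.60 and -0.76 in the PLB samples (log2 change -1.98, SE 0.18, adjusted p = 2.38e-05), and Bckdha, a subunit of that step, fell by 1.56, whereas Bcat1, the cytosolic transaminase that starts the path, rose by 1.83. Of 22 genes of fatty acid synthesis 8 rose and 8 fell (36.4% each, again near the shares over all genes). Fasn, the synthase, rose by 1.13 and Acaca, which makes its substrate, by 1.04, while Thrsp fell by 2.49 and the desaturase gene Scd1 by 2.47. Thrsp and Scd1 are high in fat cells, whose markers ranged from -2.83 to 0.67 over the E2 samples, and that part was not tested.

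Among detoxifying enzymes more genes fell than rose. Of 46 tested cytochrome P450 genes 7 rose and 24 fell. Cyp1b1, which hydroxylates E2 itself, read -4.66, -3.46, -4.53 and -4.96 in the E2 samples, against -0.86, 1.09, 0.39 and 0.41 in the PLB samples (log2 change -4.66, SE 0.45, adjusted p = 3.39e-05, normexp -3.46, deposited -3.89). Cyp2e1, an enzyme of ethanol and ketones also made by fat cells, read -3.97, 0.16, -0.22 and -1.06 in the E2 samples, against 3.40, 3.44, 3.13 and 1.59 in the PLB samples (log2 change -4.16, SE 0.89, adjusted p = 0.00338, slide 1 -5.32, slide 2 -3.00; -3.26 without E2 replicate 1), with its lowest E2 and PLB samples, replicates 1 and 4, those with the lowest fat cell markers. Of 39 genes of glutathione and Nrf2 14 rose and 18 fell. The 4 largest falls were of glutathione transferases: Gsta3 read -1.05, -1.16, -1.45 and -1.18 in the E2 samples, against 1.13, 1.43, 1.81 and 1.22 in the PLB samples (log2 change -2.61, SE 0.16, adjusted p = 2.87e-06), Gstt3 fell by 1.95, the membrane-bound Mgst2 by 1.76 and Gstt1, whose other tested probe rose by 0.37, by 1.49 (mean of probes -0.56). Txnrd1, thioredoxin reductase, rose by 1.87 and Srxn1, which repairs peroxiredoxins, by 1.71.

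Growth factor families were split by member, as all genes were (32.3% higher and 31.8% lower). In the insulin-like growth factor axis 3 of 18 rose and 10 fell. Igf1, the growth factor that carries part of the mitogenic action of E2 from stroma to epithelium, read 4.37, 4.34, 4.63 and 3.90 in the E2 samples, against 1.06, 1.42, 1.24 and 1.93 in the PLB samples (log2 change 2.90, SE 0.22, adjusted p = 7.52e-06), while its receptor gene Igf1r fell by 1.40. Irs2, an adaptor of that receptor, read -0.43, -0.78, -1.06 and -0.81 in the E2 samples, against 3.37, 3.13, 3.59 and 3.10 in the PLB samples (log2 change -4.07, SE 0.16, adjusted p = 5.00e-07), and the binding protein gene Igfbp3 fell by 1.66 where Igfbp5 rose by 0.998. In the EGF family Nrg2, a neuregulin, read 4.07, 3.91, 3.69 and 3.73 in the E2 samples, against 0.33, -0.11, 0.29 and 0.31 in the PLB samples (log2 change 3.65, SE 0.13, adjusted p = 4.02e-07) and Hbegf rose by 1.93, while Btc fell by 3.06 (normexp -0.83, deposited -1.37, slide 1 -3.83, slide 2 -2.29), and of the receptors Erbb3 fell by 1.52 (normexp -0.39) and Erbb2 by 0.65. Egfr, the main receptor for Hbegf, was not called (log2 change 0.06, SE 0.09, adjusted p = 0.558). In the FGF family the stromal ligand gene Fgf10 read -3.59, -3.89, -3.77 and -4.13 in the E2 samples, against -0.44, -0.38, -0.24 and -0.44 in the PLB samples (log2 change -3.47, SE 0.12, adjusted p = 3.77e-07, normexp -2.59) and Fgf7, which shares its receptor, fell by 1.54. Of 30 vascular genes 13 rose and 9 fell. Pgf, a ligand of the VEGF receptor Flt1, read 2.90, 3.21, 2.44 and 3.17 in the E2 samples, against -2.90, -2.22, -2.73 and -2.41 in the PLB samples (log2 change 5.49, SE 0.21, adjusted p = 4.73e-07) and Vegfa rose by 3.75. The lymphatic ligand genes Vegfc and Vegfd fell by 2.20 and 2.65, and Angpt1, which steadies vessels, fell by 3.10 (normexp -2.41).

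Developmental signals were divided by member too, as all genes were. Of 50 Wnt genes 15 rose and 20 fell (30% and 40%, against 32.3% and 31.8% over all genes). Wnt4 and Wnt7b rose by 3.55 and 3.43 (normexp 2.32), Wnt6 fell by 2.25 and the receptor gene Fzd1 by 2.53. Lgr6, a receptor of R-spondins, read 0.41, 0.55, 0.72 and 0.25 in the E2 samples, against -3.15, -3.58, -3.38 and -3.99 in the PLB samples (log2 change 4.004, SE 0.18, adjusted p = 8.36e-07, normexp 3.38), while the R-spondin gene Rspo3 fell by 3.88. In the hedgehog pathway Dhh, a ligand, read 0.80, 1.13, 0.85 and 0.65 in the E2 samples, against -1.81, -1.75, -1.94 and -1.98 in the PLB samples (log2 change 2.73, SE 0.11, adjusted p = 6.01e-07), and Ptch1, the receptor and a usual target of the path, read -5.31, -4.88, -4.31 and -4.41 in the E2 samples, against -1.99, -2.04, -1.67 and -1.62 in the PLB samples (log2 change -2.90, SE 0.23, adjusted p = 1.00e-05, normexp -1.66, deposited -2.04), so that ligand and receptor moved in opposite directions. Of 26 Notch genes 10 rose and 11 fell (38.5% and 42.3%). The target genes Heyl and Hey1 rose by 2.86 and 1.93, and Jag1, a ligand, fell by 1.09. Among TGF-beta genes Inhbb, the subunit of activin B, read 5.98, 5.40, 5.69 and 5.38 in the E2 samples, against 1.99, 1.02, 1.73 and 0.58 in the PLB samples (log2 change 4.28, SE 0.31, adjusted p = 6.58e-06), and the activin receptor genes Acvr2b and Acvr1c fell by 2.85 and 2.84 (normexp -1.44, deposited -2.06). The enzymes that make retinoic acid moved in opposite directions: Aldh1a2 read 5.96, 5.91, 5.90 and 5.87 in the E2 samples, against 1.58, 1.85, 1.82 and 2.38 in the PLB samples (log2 change 4.001, SE 0.16, adjusted p = 5.14e-07) and Aldh1a3 read -1.77, -1.36, -2.05 and -1.14 in the E2 samples, against 1.49, 1.96, 1.59 and 2.00 in the PLB samples (log2 change -3.34, SE 0.22, adjusted p = 3.78e-06). In neither gene did the groups overlap. Crabp2, which carries retinoic acid to the nucleus, rose by 2.96 and Rarb, a receptor and target, fell by 1.92.

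Of 24 prostaglandin genes 7 rose and 13 fell, and the receptors supplied 3 of the 4 largest falls. Ptgfr, the receptor of prostaglandin F that contracts the myometrium, read -4.51, -4.39, -3.92 and -4.11 in the E2 samples, against 0.02, -0.16, -0.00 and -0.16 in the PLB samples (log2 change -4.16, SE 0.14, adjusted p = 3.08e-07, normexp -3.22), Ptger2 fell by 2.24, and Ptgdr was not well above background on any E2 array and was at least 42-fold lower in the main setting (log2 change -6.27, normexp -3.04, deposited -4.03). Hpgd, which inactivates prostaglandins, fell by 3.32, whereas the importer gene Slco2a1 rose by 2.58 and the cyclooxygenase gene Ptgs2 by 1.48 (normexp 0.88). Of 18 regulators of G protein signalling 3 rose and 9 fell. Rgs2, which restrains receptors that raise calcium, read 3.55, 2.83, 3.91 and 3.46 in the E2 samples, against 5.93, 6.21, 6.40 and 5.93 in the PLB samples (log2 change -2.68, SE 0.22, adjusted p = 1.42e-05). Of 31 semaphorin genes, guidance cues of axons and vessels, 13 rose and 9 fell, with Sema6c at -3.72 (mean of probes -2.52) and Sema3f at 2.49. Of 66 potassium channel genes 19 rose and 25 fell; centring on the median turned this to 21 and 20. Kcnj8, the pore of an ATP-sensitive channel of pericytes, fell by 2.61, beside the 5 of 7 pericyte markers that fell, of which it is one.

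Genes of the interleukin-6 family and NF-kappaB leaned to higher, and genes of interferon and complement to lower. Of 30 chemokines 9 rose and 4 fell, a share of rises close to that over all genes, though the rises were large. Cxcl1, which attracts neutrophils, read -0.81, -0.82, -1.02 and -0.84 in the E2 samples, against -5.50, -5.90, -4.43 and -4.98 in the PLB samples (log2 change 4.33, SE 0.28, adjusted p = 3.94e-06, normexp 2.97, deposited 3.64), and the monocyte attractants Ccl7 and Ccl2 rose by 4.28 and 3.72. Cxcl5, another neutrophil attractant, was not well above background on any PLB array and was at least 11.6-fold higher in the main setting (log2 change 4.40, normexp 1.67, deposited 2.54, slide 1 5.14, slide 2 3.67). Ccl5, which draws T cells, fell by 0.82. Neutrophil markers were higher in 2 of 6 cases and their mean level ran from -0.74 to 0.10 in E2 and from -1.44 to -0.66 in PLB, where S100a9 rests on a spot of replicate 2 that the deposited table lists as missing. Of 28 genes of the interleukin-6 family and its SOCS brakes 16 rose and 5 fell. Socs3, a feedback inhibitor of that family's signal, read 6.71, 6.44, 6.37 and 6.58 in the E2 samples, against 2.22, 1.67, 1.77 and 2.18 in the PLB samples (log2 change 4.57, SE 0.15, adjusted p = 3.05e-07), Socs1 rose by 4.49, Il6 by 4.30 (normexp 1.50, deposited 2.35) and Il11 by 4.24 (normexp 3.49). Of 26 NF-kappaB genes 15 rose and 2 fell. Bcl3, a nuclear cofactor of the p50 and p52 subunits, read 4.52, 4.40, 4.50 and 4.20 in the E2 samples, against 1.43, 0.98, 1.31 and 1.45 in the PLB samples (log2 change 3.11, SE 0.13, adjusted p = 5.58e-07), and Ikbke fell by 1.81 (normexp -1.01). Among 39 Toll-like receptor and inflammasome genes, of which 7 rose and 19 fell, the decoy receptor gene Il1r2 read -1.18, -1.58, -0.67 and -1.20 in the E2 samples, against -5.58, -4.96, -5.52 and -5.29 in the PLB samples (log2 change 4.18, SE 0.21, adjusted p = 1.15e-06, normexp 2.64, deposited 3.38) and Tlr4, the endotoxin receptor, fell by 1.89.

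Of 75 interferon-stimulated genes, the antiviral set that cells turn on when interferon binds its receptor, 51 fell and 2 rose (median -0.68). Ifit2, which blocks translation of viral RNA, read -3.65, -3.28, -3.35 and -3.49 in the E2 samples, against -0.54, -0.71, -0.31 and -0.72 in the PLB samples (log2 change -2.87, SE 0.12, adjusted p = 6.60e-07, normexp -2.25), and Ifit3b read -2.85, -2.73, -3.37 and -2.72 in the E2 samples, against -0.46, -0.65, 0.17 and -0.27 in the PLB samples (log2 change -2.62, SE 0.21, adjusted p = 1.11e-05). Every E2 sample lay below every PLB sample for both. Rsad2, the antiviral enzyme viperin, fell by 2.55 and Oas1c, of the family that senses double-stranded RNA, by 2.46. The 2 that rose were Isg20 (0.49) and Ifi208 (0.44), and neither call held with quantile normalisation (adjusted p = 0.185 and 0.0568) or in the deposited table (0.171 and 0.0534); with the mean of all its probes Ifi208 changed by -0.91 (adjusted p = 0.000742). Promoters of this family are shown because most hold an element through which interferon acts: the interferon-stimulated response element (TTTC, a pair of any bases and TTTC, on either strand) was present in 28 of 49 promoters (57.1%) found in the table, against 421 of 13251 (3.18%) over all genes tested with a promoter. Over genes called and at least 2-fold lower the share was 3.60%, close to that over all genes. This motif was added after the values were seen. The promoter of Ifit2 was searched for a window too, but held no match before its start site, so that none is printed. Matches are in capitals in windows of 120 bases on the gene's strand, from RefSeq on build GRCm38.p6. The windows are placed around the matches and end short of the start site. They lie at chr12:26456508-26456627 (Rsad2, minus strand), chr5:120812561-120812680 (Oas1c, minus, 2 overlapping matches) and chr19:34607731-34607850 (Ifit3b, plus, 2 matches). The last match ends 110 (Rsad2), 98 (Oas1c) and 144 (Ifit3b) bases before the start site.
Rsad2: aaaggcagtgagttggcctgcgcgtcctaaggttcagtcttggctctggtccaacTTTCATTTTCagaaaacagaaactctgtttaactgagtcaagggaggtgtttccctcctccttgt
Oas1c: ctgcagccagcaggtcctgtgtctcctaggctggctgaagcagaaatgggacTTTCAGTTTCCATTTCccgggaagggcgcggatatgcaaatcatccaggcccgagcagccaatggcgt
Ifit3b: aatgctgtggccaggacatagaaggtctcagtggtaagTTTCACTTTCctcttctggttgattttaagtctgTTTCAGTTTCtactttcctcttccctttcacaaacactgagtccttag

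Genes of antigen presentation and of complement were called lower more often than higher. Of 42 MHC and antigen presentation genes 1 rose and 16 fell (median -0.33), with Tap1, of the peptide pump, at -1.02 and H2-T22, a nonclassical class I gene, at -1.07. The share that fell, 38.1%, was near the 31.8% over all genes. The family differed more by its few rises, 2.38% against 32.3%. Of 33 complement genes 3 rose and 20 fell. C5ar1, the receptor of the anaphylatoxin C5a on white blood cells, read -1.83, -1.43, -1.72 and -1.90 in the E2 samples, against -4.20, -4.38, -4.39 and -4.31 in the PLB samples (log2 change 2.60, SE 0.11, adjusted p = 6.82e-07, normexp 1.95). Cfd, complement factor D or adipsin, is a fat cell marker and read -2.01, 3.28, 3.57 and 1.94 in the E2 samples, against 5.93, 5.89, 5.62 and 4.36 in the PLB samples (log2 change -3.75, SE 1.15, adjusted p = 0.0197, slide 1 -5.27, slide 2 -2.24). Its E2 samples spread over 5.58 log2 units, with the lowest in E2 replicate 1, whose fat cell markers were lowest too, and without that sample the change was -2.52 (adjusted p = 0.00423). Without E2 replicate 3 it was -4.38. Of 20 cathepsin and cystatin genes, lysosomal proteases and their inhibitors, 2 rose and 13 fell, and both that rose are a pair: Ctsb (1.34) and Cstb (2.26), a cystatin that can inhibit it. Cstb read 5.19, 5.22, 5.15 and 5.26 in the E2 samples, against 2.78, 3.02, 2.90 and 3.09 in the PLB samples (log2 change 2.26, SE 0.09, adjusted p = 4.73e-07).

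Among transcription factors, no Hox gene and no T-box gene was called higher in the main setting, against 2 Hox genes and 1 T-box gene with arrays centred on their median. Of 32 Hox genes, some of which set position along the reproductive tract, 21 fell and 0 rose (median -0.88). Hoxc6 read 0.30, 0.68, 0.23 and 0.48 in the E2 samples, against 2.90, 2.42, 2.57 and 2.73 in the PLB samples (log2 change -2.23, SE 0.14, adjusted p = 3.05e-06) and Hoxd4 fell by 2.02, and 7 of 10 markers of stroma, a list that holds Hoxa10 and Hoxa11, fell too. Of 11 T-box genes 5 fell and 0 rose, with Tbx18 at -1.44 (normexp -0.30, deposited -0.43) and Tbx2 at -1.14. Of 362 zinc finger genes named Zfp, many of them repressors with a KRAB domain, 182 fell and 87 rose (median -0.28). Zfp36, not a repressor of DNA but of cytokine RNA, was among the rises (1.93). Among Krüppel-like factors Klf4 read 4.62, 4.44, 4.37 and 4.33 in the E2 samples, against 2.44, 1.93, 1.98 and 2.20 in the PLB samples (log2 change 2.30, SE 0.13, adjusted p = 1.82e-06) and Klf11 and Klf15 fell by 2.18 and 1.86. Sox9, a factor of glandular epithelium, read 1.03, 0.32, 0.63 and 0.54 in the E2 samples, against -3.54, -3.996, -3.57 and -3.57 in the PLB samples (log2 change 4.30, SE 0.17, adjusted p = 5.20e-07, normexp 3.54). In the Myc network Myc and Mycn rose by 1.12 and 1.74, and the opposing Mxd1 and Mxd4 fell by 1.42 and 1.68; Mxi1, another antagonist, was not well above background on any E2 array and was at least 4.14-fold lower in the main setting (log2 change -3.92, normexp -0.90, deposited -1.63). Of 44 ATF, CREB, CEBP and Maf genes 22 rose and 13 fell, with Cebpb, which E2 is known to induce in the uterus, at 2.85.

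The circadian clock changed on 19 of 21 genes, 7 higher and 12 lower. Per3, a period gene, read -4.07, -4.02, -4.32 and -3.95 in the E2 samples, against -1.24, -1.28, -0.71 and -0.85 in the PLB samples (log2 change -3.07, SE 0.15, adjusted p = 1.09e-06, normexp -2.20). Dbp, an output factor that the clock drives directly, read 2.48, 3.50, 2.61 and 3.22 in the E2 samples, against 5.42, 5.73, 6.24 and 6.12 in the PLB samples (log2 change -2.92, SE 0.27, adjusted p = 2.64e-05), and its relative Hlf and the repressor gene Nr1d1 fell by 2.45 and 2.80. Nfil3, which competes with Dbp for the same sites, rose by 2.60, and the repressors Ciart and Cry1 rose by 2.31 and 1.44. The labels used here do not give the hour of day at which uteri were taken, and its part was not tested. Chromatin enzymes were mixed. Ezh1, a histone H3 methylase of resting cells, read 3.05, 2.96, 2.98 and 3.21 in the E2 samples, against 5.36, 5.41, 5.28 and 5.26 in the PLB samples (log2 change -2.28, SE 0.08, adjusted p = 3.96e-07). Of 18 histone deacetylases and sirtuins 6 rose and 10 fell. Hdac5, of the class exported from the nucleus by kinases, read 2.72, 2.70, 2.39 and 2.97 in the E2 samples, against 5.03, 4.73, 4.94 and 4.84 in the PLB samples (log2 change -2.19, SE 0.13, adjusted p = 2.41e-06), and Hdac2, of class I, rose by 1.03.

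Genes of rest mostly fell. Of 34 genes linked to FoxO factors and quiescence 6 rose and 21 fell (median -1.41), a list written with earlier results of these data known, so that its direction is no independent evidence. Pik3ip1, a brake on phosphoinositide kinase, read -1.79, -1.84, -2.24 and -1.40 in the E2 samples, against 3.44, 3.19, 3.47 and 3.01 in the PLB samples (log2 change -5.09, SE 0.19, adjusted p = 4.09e-07), Sesn1 fell by 3.47 and Ypel3 by 3.69 (mean of probes -3.09), while Tob1, another antiproliferative gene, rose by 2.88. In the Bcl2 family the 2 directions were close to even (7 rose and 6 fell of 19). Bmf, a killer protein freed from the cytoskeleton, read -0.86, -0.65, -1.24 and -0.78 in the E2 samples, against 3.19, 2.87, 3.29 and 3.22 in the PLB samples (log2 change -4.03, SE 0.15, adjusted p = 4.18e-07), and Bax and Bak1, which perforate mitochondria, rose by 1.42 and 1.10. Fbxo32, the ubiquitin ligase atrogin of wasting muscle, fell by 2.54 and Klhl24, an adaptor that degrades keratin, by 4.10 (normexp -2.53, deposited -3.30). Of 50 clustered histone genes, whose RNA is made in S phase, 8 rose and 22 fell.

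Of 18 tested tissue kallikreins 12 rose and 4 fell, by their branch of the locus, and 2 were not called. All 12 tested genes of the Klk1 and Klk1b cluster of tissue kallikreins, secreted serine proteases, rose, by 2.86 to 6.21, and Klk8 to Klk11 of the same locus fell by 0.68 to 1.25. Klk1 read 3.82, 2.78, 3.60 and 2.82 in the E2 samples, against -2.62, -3.12, -3.26 and -2.80 in the PLB samples (log2 change 6.21, SE 0.27, adjusted p = 6.61e-07). Klk1b5 read 4.97, 3.93, 4.69 and 3.87 in the E2 samples, against -1.72, -1.86, -2.19 and -1.35 in the PLB samples (log2 change 6.14, SE 0.29, adjusted p = 8.67e-07), and in both genes E2 replicates 1 and 3 lay above replicates 2 and 4. Some copies are alike enough that their probes might share signal, which was not measured. Among the 66 pairs of the 12 probes the number of equal bases at the best shift ran from 17 to 54 of 60 (median 21), with 2 pairs at 50 or more. The probes of Klk1b11 and Klk1b27, a pair chosen after these counts were seen, are shown with the 6 bases that differ in capitals. They lie on the plus strand of chromosome 7 of build mm9, at 51255119 to 51255178 and 51311959 to 51312018.
Klk1b11: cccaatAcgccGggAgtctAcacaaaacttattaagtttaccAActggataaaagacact
Klk1b27: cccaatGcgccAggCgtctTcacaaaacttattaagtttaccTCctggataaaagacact

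Klk1b11 and Klk1b27 rose by 5.54 (normexp 2.60, deposited 3.54) and 4.46 (normexp 3.44), and which copy gave the signal cannot be told from these probes. Of 39 keratins 20 rose and 4 fell (median 0.88). Krt87 and Krt75, keratins of hair and its sheath, were not well above background on any PLB array and were at least 100-fold (log2 change 7.76, normexp 4.59, deposited 5.61) and 10-fold (log2 change 5.31, normexp 1.87, deposited 2.89) higher in the main setting, and Krt81, a hair keratin too, rose by 5.01 (normexp 4.42). Krt18, the simple epithelial keratin, fell by 0.46. Of 8 aquaporins 3 rose and 3 fell. Aqp5, of gland cells, read 3.39, 3.34, 3.28 and 2.96 in the E2 samples, against -1.18, -2.06, -2.59 and -2.57 in the PLB samples (log2 change 5.34, SE 0.30, adjusted p = 1.90e-06), Aqp8 rose by 6.51 (normexp 5.54, deposited 5.91) and Aqp3 by 2.21, while Aqp11 fell by 2.54 and Aqp1, the channel of red cells and small vessels, by 1.54. Of 28 claudin and tight junction genes 3 rose and 12 fell. Cldn1, a sealing claudin, read -5.52, -5.72, -5.90 and -5.10 in the E2 samples, against -1.11, -0.54, -1.09 and -0.94 in the PLB samples (log2 change -4.64, SE 0.20, adjusted p = 6.08e-07, normexp -2.88, deposited -3.58), Cldn5, of endothelium, fell by 2.17 beside 4 of 10 endothelial markers, of which it is one, and Cldn7 rose by 1.73. Of 13 connexins 5 rose and 3 fell. Gjb2, of epithelia, rose by 2.15 and Gja1, of the myometrium, by 1.12.

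Matrix genes went both ways within each family, as all genes did. Of 41 collagen chains 11 rose and 15 fell (26.8% and 36.6%, against 32.3% and 31.8% over all genes). Col6a5, a chain of the beaded filaments, read -1.78, -1.87, -2.50 and -2.46 in the E2 samples, against -6.41, -5.55, -5.51 and -4.998 in the PLB samples (log2 change 3.47, SE 0.31, adjusted p = 1.94e-05, normexp 1.80, deposited 2.50, slide 1 4.16, slide 2 2.78), and Col6a4 and Col6a3 rose by 2.31 and 1.99, while Col5a2, of fibril cores, fell by 2.49. Lox, which cross-links collagen and elastin, fell by 2.09 (normexp -1.44) and its relative Loxl4 rose by 1.98 (normexp 1.16). Has1 read 2.00, 0.64, 1.33 and 0.89 in the E2 samples, against -4.89, -4.86, -5.26 and -4.10 in the PLB samples (log2 change 5.99, SE 0.34, adjusted p = 1.87e-06, normexp 4.70), and the small proteoglycan genes Lum and Prelp fell by 1.37 and 2.66 (normexp -1.70). Of 22 ADAMTS genes 8 rose and 11 fell. Adamts4 read 6.11, 5.49, 5.49 and 5.61 in the E2 samples, against -0.66, -0.48, -1.02 and 0.48 in the PLB samples (log2 change 6.09, SE 0.31, adjusted p = 1.19e-06), Adamts9 rose by 3.25, and Adamts7 fell by 3.31 (normexp -1.34, deposited -1.90). Of 15 matrix metalloproteinase and TIMP genes 3 rose and 8 fell. Mmp11, a stromal member, read -0.54, -0.31, -0.71 and -0.44 in the E2 samples, against 3.37, 2.51, 3.17 and 2.78 in the PLB samples (log2 change -3.46, SE 0.19, adjusted p = 1.72e-06), Mmp9 fell by 2.12 (normexp -1.21, deposited -1.50), and the inhibitor gene Timp1 rose by 2.75.

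Among cytoskeletal genes most cilium genes fell and more tubulins rose than fell. Of 67 cilium genes 6 rose and 47 fell (median -0.59). Dnah5, a dynein heavy chain of motile cilia, read -6.50, -7.69, -7.62 and -7.89 in the E2 samples, against -4.06, -3.78, -4.28 and -4.99 in the PLB samples (log2 change -3.15, SE 0.35, adjusted p = 8.09e-05, normexp -0.79, deposited -1.31) and Dnah2 fell by 2.31, while Dnah17, a dynein chain of the sperm tail, read -0.95, -0.46, -1.57 and -0.97 in the E2 samples, against -4.60, -4.32, -4.28 and -4.25 in the PLB samples (log2 change 3.38, SE 0.22, adjusted p = 3.51e-06, normexp 2.37). The E2 levels of Dnah5 were faint, and the size of its fall depended on the processing. Of 35 kinesins 5 rose and 15 fell. Kif5c, a cargo motor, read 4.06, 3.90, 3.76 and 3.97 in the E2 samples, against 1.36, 1.32, 1.27 and 1.33 in the PLB samples (log2 change 2.60, SE 0.08, adjusted p = 2.63e-07) and its relative Kif5b rose by 1.52, where Kif27, of the cilium, fell by 1.78 (normexp -0.35, deposited -0.74). Of 25 tubulin genes 12 rose and 4 fell, with Tuba1c at 2.41 and Tubb6 at 1.48. Of 30 smooth muscle genes 12 rose and 7 fell, which quantile normalisation turned to 6 and 10, normexp with quantile normalisation to 7 and 11 and the deposited table to 7 and 12. Oxtr, the oxytocin receptor, read 4.61, 4.27, 4.75 and 4.09 in the E2 samples, against 1.17, 0.68, 1.22 and 0.43 in the PLB samples (log2 change 3.56, SE 0.22, adjusted p = 2.76e-06), and Pln, which brakes the calcium pump, fell by 2.45.

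**Figure D4:**
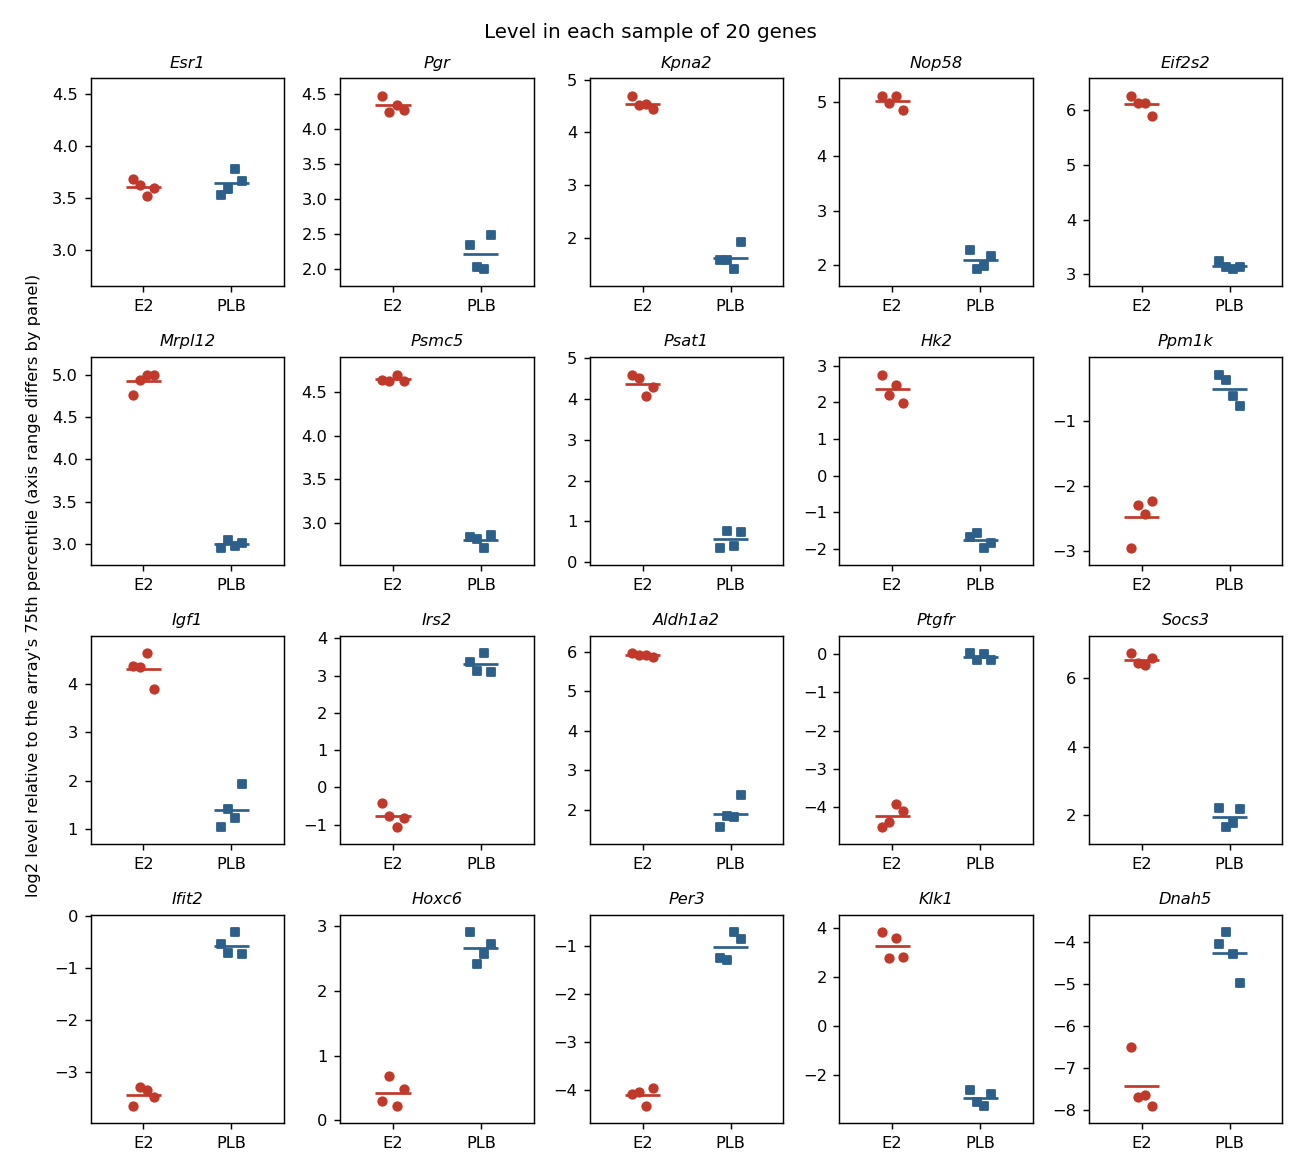
Log2 level relative to the array's 75th percentile of 20 genes that stand for the families described, 1 panel a gene; E2 samples at the left, PLB samples at the right, points are samples and bars are group means. The groups do not overlap in 19 of the panels, most of which show genes named for the size of their change. The exception, Esr1, ranged from 3.52 to 3.68 in E2 and from 3.53 to 3.78 in PLB. Over all genes tested, 31% had the 4 E2 arrays all above the 4 PLB arrays, and 29.6% had them all below. Dnah5 was faint in E2.

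Receptors of smell, with no known part in the uterus, were mostly too dim to test. Of 1368 olfactory and vomeronasal receptor genes on the array 167 were bright enough to test, 119 of these were not called, and 20 rose and 28 fell; quantile normalisation turned the split to 30 and 22. By class of transcript, 36.4% of 15828 protein-coding genes rose and 33.7% fell, whereas of 774 long noncoding RNA genes 15.9% rose and 46.9% fell. On the X chromosome 24.5% of 935 genes rose and 36.5% fell, and on chromosome 4 38.2% of 1525 rose and 28.7% fell. These shares describe the arrays, and no test was made of them. Among 7549 genes with at least 2 tested probes, all probes were called in 1 direction in 3614, no probe was called in 1420, and probes were called in opposite directions in 276, in 98 of which each lay at least 0.5 log2 units from 0. Besides Srsf2 they include Dlc1, named for its loss in human liver cancer (-3.38 and 0.80), and Noct, an output of the clock that cleaves phosphate from NADP (-1.95 and 2.14). The value given for such a gene is that of its brightest probe.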

How the data were processed

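RNA of 8 wild-type uterus samples was measured on 1-colour Agilent arrays of 60-base probes (200 ng of RNA each). Spot intensities were taken from the scans by the authors in Feature Extraction (Agilent, 10.10.1.1), which subtracted background and detrended them. The file headers say so and place the probes on mouse build mm9. The series table deposited by the authors holds log2 values with 1 shared distribution per array, and the submitters' processing notes name limma; its background step is not given in the sources used here. Here log2 of the processed intensity was taken relative to each array's 75th percentile, outlier spots were left out, spots of a probe were averaged, and a probe had to stand well above background on 4 or more of the 8 arrays, which left 36592 probes for the test (limma 3.58.1 in R 4.3.3, Benjamini-Hochberg, 0.05). The brightest tested probe stood for a gene, and 98 genes had a missing value on an array. Probes were named from the RefSeq table by accession (27325 of 55681), symbol (3523) or synonym (551) and otherwise kept the file's name (24282). Where no array of a group had a probe well above background, an "at least" fold is given: the brighter group's mean is set against a floor, which is on each dim array the larger of the probe's signal and the faintest signal counted as well above background, averaged over the group. Such a fold is a bound within the main setting only. With normexp and in the deposited values each gene given such a fold changed by less than it. Precision is limited by the number of arrays, and the median gene's 95% interval reached 0.295 log2 units either side.

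The 91 families and 20 marker lists were chosen with earlier results of these data known. Named were Esr1 and Pgr, up to 4 called members with the largest rise and fall in each family, any member of families of at most 12, and ranks 13 to 30 of rise and 11 to 28 of fall; the genes with printed sequences, some members of families given for contrast with their relatives and the kallikrein copies were chosen after their values were seen, as were the 8-fold sets and the interferon motif. A few genes that this rule takes are not reported here. Samples were not paired: deviations of same-numbered samples correlated at 0.174, 0.0768, -0.0308 and -0.0222. Alternatives covered background correction, scaling, the deposited table, the filter on dim probes, the choice of probe, all 16 arrays, slide, replicate block, the variance prior and left-out samples; leaving out both PLB replicate 2 and E2 replicate 3, or the spots missing in the deposited table, was added after seeing the data. Promoters (250 bases before to 50 after the start) were found for 13251 of 24751 genes tested.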

Additional observations from a re-analysis of the deposited data

Results flagged for a closer look

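Each value below lay outside the rest of its group of 4 samples by Dixon's test at the 95% level, which chance passes in about 1 of 20 groups; 8 of 184 tests did so. Hsph1 was 5.13 in E2 replicate 3, against 5.32 to 5.36 in the other E2 samples. Cxcl1 was -1.02 in E2 replicate 3, against -0.84 to -0.81 in the others. The pericyte marker mean was 0.54 in E2 replicate 1, against 0.68 to 0.69. Nrg2 was -0.11 in PLB replicate 2, against 0.29 to 0.33 in the other PLB samples, and Sox9 was -4.00 there, against -3.57 to -3.54. Cyp2e1 was 1.59 in PLB replicate 4, against 3.13 to 3.43. In that sample the mast cell marker mean was -1.65, against -0.77 to -0.76, and the erythrocyte marker mean was -0.80, against -3.38 to -2.94.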

How the results depend on the processing

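Of 15879 genes called, between 14992 and 15617 were called when 1 sample was left out (7572 to 7916 higher and 7370 to 7839 lower), 15296 with the replicate block, 15590 with the slide as a block and 14774 without PLB replicate 2 and E2 replicate 3. Replicate numbers are shared across groups as numbers only, and pairing was not borne out by the data. Counts fell to 12406 within slide 1 and 10154 within slide 2 (5175 higher and 4979 lower), with 4 arrays in each fit. The requirement of a 2-fold change left 7031 genes. Centring on the median gave 9553 higher and 6541 lower. More than 50% of tested members were called in 1 direction in 36 families, 22 higher and 14 lower. This number was 23 within slide 1 (6 lower) and 17 within slide 2 (13 higher and 4 lower), and quantile normalisation, with or without normexp, raised the families lower to 22. The cause of the last shift was not tested. Of 276 called genes that are named, 255 kept the call under every setting that tested them and 21 lost it under at least 1, 9 of these within slide 1 and 17 within slide 2. Outside the slide fits only Isg20 (normexp with quantile, quantile and deposited values) and Ifi208 (quantile and deposited values) lost it, and Ifi208 reversed to -0.91 with the mean of all its probes. Dim probes have only bounds, and 1825 of the family entries on the array were too dim to test.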

Other observations

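Some families showed further detail. Of 41 tested genes of the cornified envelope and its surface (small proline-rich proteins, mucins, S100 proteins and their modifying enzymes) 18 rose and 9 fell after E2. The cross-linked envelope genes Sprr2f and Sprr2g rose by 6.29 (normexp 5.47, without PLB replicate 2 and E2 replicate 3 5.49) and 5.11, and Padi3, which like Padi1 makes citrulline, was not well above background on any PLB array and was at least 69.7-fold higher in the main setting (log2 change 6.32, normexp 3.81, deposited 4.73). Muc16, a membrane mucin of the epithelial surface, fell by 1.16. Of 24 metallothionein and zinc transporter genes 13 rose and 4 fell (median 0.48): Slc39a6, an importer long known as an estrogen-regulated gene in breast cancer cells, rose by 1.33 and Slc39a7, of the endoplasmic reticulum, by 1.26, and the gut importer gene Slc39a4 fell by 0.99. Of 40 protocadherins, adhesion molecules best known in neurons, 1 rose and 14 fell, with Pcdh19 at -2.11 and Pcdh7 at -1.62. With normexp and quantile normalisation the protocadherin counts were 3 and 8.

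Among 37 genes of the tumour necrosis factor superfamily 11 rose and 15 fell. Tnfrsf12a, the receptor of the ligand Tweak, rose by 4.25, while Tnfrsf19 fell by 2.14 and Tnfrsf11b, the decoy receptor osteoprotegerin, by 1.76. In the cell cycle list 9 of 33 rose and 9 fell. Cdkn1a, the p21 inhibitor of cyclin-dependent kinases, read 4.12, 3.91, 3.69 and 4.19 in the E2 samples, against 0.16, 0.35, -0.27 and -0.40 in the PLB samples (log2 change 4.01, SE 0.19, adjusted p = 9.05e-07), with no overlap. The inhibitor gene Cdkn2c and the cyclin gene Ccng2 fell by 2.35 and 2.62 (normexp -1.86). Among 25 ETS factors Elf3, of epithelia, rose by 2.63, and Etv1 and Etv5 fell by 2.85 and 1.77. The palindromic estrogen response element, the receptor's classical site, was present in 4 of 13251 promoter windows (0.0302%) and in 1 of 1995 (0.0501%) of genes called and at least 2-fold higher. No hypothesis was tested on these values.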
